A study of Rattus norvegicus with 2 samples.

Results

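Collagen chains other than those that define cartilage were followed in fetal rat skin between embryonic day 16.5, labelled E16, and day 18.5, labelled E19. The chains were taken by name: every array gene name that begins with Col, a number, the letter a and a number, leaving out Col2a1, Col9a1, Col9a2, Col9a3, Col11a2 and Col17a1. This gave 27 of 18365 gene names, and 1 of them, Col4a3bp, encodes a ceramide transfer protein and no collagen chain, so 26 chains were described. Enzymes that modify or cross-link collagen were left outside the set and are given as context. Both stages were untreated Sprague Dawley fetuses. Skin RNA of 4 E16 samples and of 3 E19 samples was pooled by stage, and the same 2 pools were hybridised to 2 Agilent rat arrays, E19 being labelled with Cy5 on 1 array and with Cy3 on the other. There is therefore 1 RNA pool per stage, and no test of the stage difference is possible. Values below are log2 ratios of E19 over E16, given as the mean ± SD of both arrays (n = 2). This SD is technical and does not include differences between fetuses or litters.

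Collagens are assembled from alpha chains that wind into triple helices inside the endoplasmic reticulum and are then secreted. Fibrillar collagens (types I, III and V in skin) form the rope-like fibres of the dermis, and fibril-associated collagens sit on the surface of those fibres. Type IV forms the sheet-like network of basement membranes, type VI forms beaded microfibrils around cells, and type VII forms the anchoring fibrils that fasten the epidermal basement membrane to the dermis. Types VIII and X are short-chain collagens that form lattices, the first around vessels and in the cornea, the second in hypertrophic cartilage.

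The name rule does not keep out every chain known from cartilage. Col10a1, the marker of hypertrophic chondrocytes, and Col11a1, the partner of the left-out Col11a2 in cartilage fibrils, are both in the set, and so is Col27a1, a fibrillar chain also known from cartilage. Counts and medians are therefore also given without Col10a1 and Col11a1. A probe counted as detected when it stood well above background for at least 1 pool on both arrays, and the brightest detected probe stood for its gene. Detected chains numbered 25 of the 26, with 41 of their 43 probes. Col4a4, a chain of specialised basement membranes, was not well above background in either pool. Col10a1 passed only through the E16 pool, so it could appear only as higher in E16, and the other 24 chains were measured in both pools.

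The call used here requires a difference of 2-fold or more towards the same stage on each of the arrays. No chain of the 25 was called higher in E19, where 4.15% of all 14803 detected genes were. Called higher in E16 were 5 of the 25 chains, where 3.75% of all detected genes were. These 5 were Col22a1, Col11a1, Col10a1, Col8a1 and Col12a1. Without Col10a1 and Col11a1 the count was 3 of 23. With both pools required to be well above background, which drops Col10a1, it was 4 of 24, against 3.43% of 14080 genes. The median over the 25 chains was 0.14, against 0.02 over all detected genes, and it was 0.23 without those 2 chains. Above 0 on both arrays were 13 chains and below 0 on both were 7, while 5 changed sign between the arrays. Spike-in centring subtracted the mean log2 ratio of the spike-in RNAs over both arrays, 0.22, from each array alike. It moved the median of all genes to -0.20 and that of the chains to -0.08. The mean ratios of Col5a1, Col14a1 and Col16a1 then fell below 0. The share of all genes called was then 2.63% for E19 and 5.48% for E16, and the 5 E16 calls among the chains stayed.

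**Figure D1:**
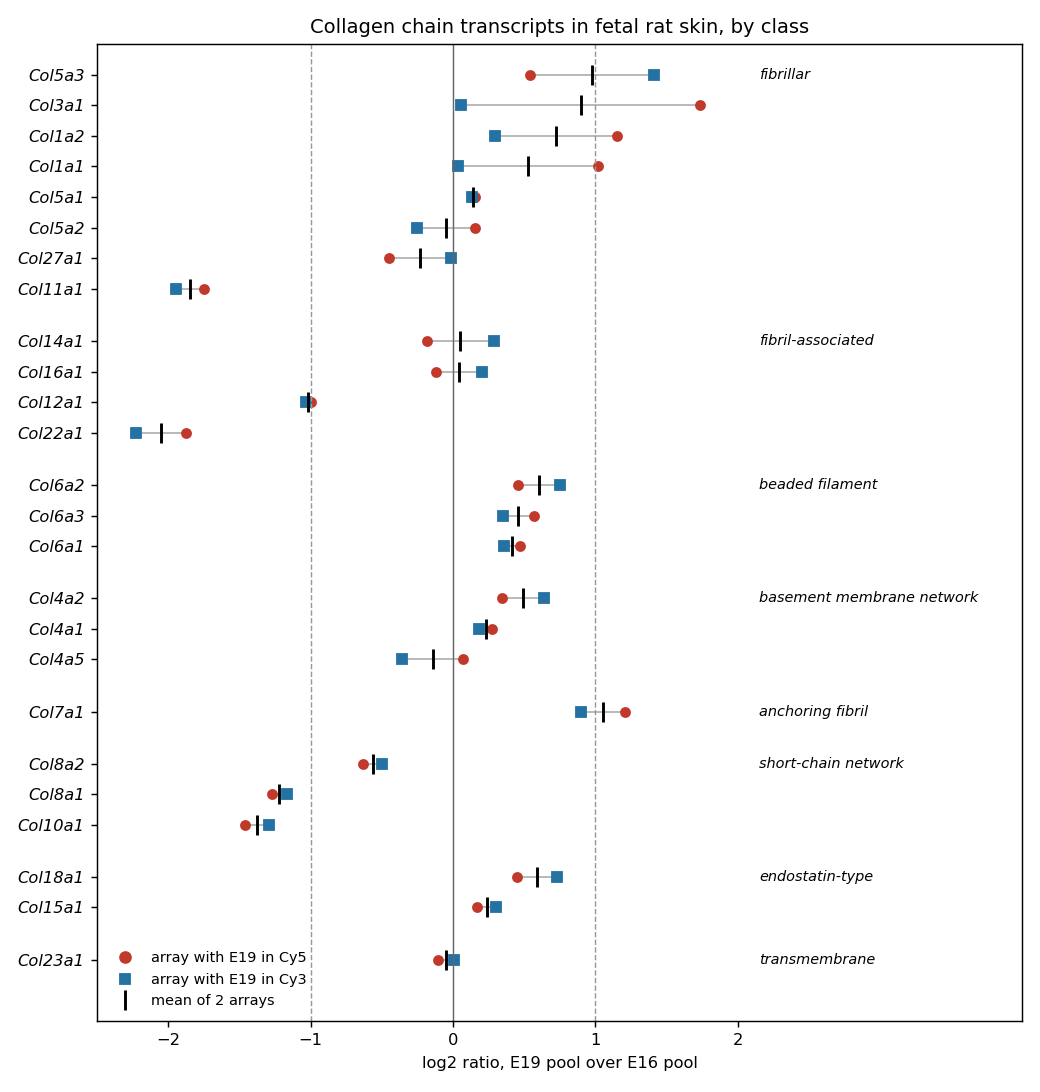
Log2 ratio E19 over E16 (horizontal axis) of each of the 25 detected collagen chains, grouped by collagen class, on the arrays with E19 in Cy5 (circles) or Cy3 (squares), with the mean as a black bar and the 2-fold lines dashed. Col22a1, Col11a1, Col10a1, Col8a1 and Col12a1 lie at or beyond the 2-fold line towards E16 on both arrays, while Col3a1 spans from 0.06 to 1.74.

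The sequence just before the start of transcription is shown for 4 chains with the most E16-sided or E19-sided ratios and an entry in the RefSeq promoter table, and for the stretch that Col4a1 and Col4a2 share. The table, of the rat assembly GRCr8, matched 20 of the 26 chains, and held none for Col12a1, Col14a1, Col1a1, Col22a1, Col3a1 and Col6a2. The 150 bases before each start are given 5′ to 3′ on the gene's strand, in lower case, with matches to TATAAA (the TATA box), CCAAT and GGGCGG (the GC box) on either strand in capitals. Of these windows, Col10a1 lies at chr20:39737386-39737535 (plus strand), Col11a1 at chr2:204508986-204509135 (plus), Col8a1 at chr11:56246632-56246781 (plus) and Col7a1 at chr8:118483214-118483363 (plus). The stretch between the starts of Col4a1 and Col4a2 lies at chr16:84885521-84885596 and is written on the plus strand, that of Col4a1.
Col10a1: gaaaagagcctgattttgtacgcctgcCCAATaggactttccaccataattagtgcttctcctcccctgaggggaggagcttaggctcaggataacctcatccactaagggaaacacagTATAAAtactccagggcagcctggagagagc
Col11a1: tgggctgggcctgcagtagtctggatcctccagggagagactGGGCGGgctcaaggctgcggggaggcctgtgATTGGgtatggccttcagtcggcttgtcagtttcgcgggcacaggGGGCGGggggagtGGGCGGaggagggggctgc
Col8a1: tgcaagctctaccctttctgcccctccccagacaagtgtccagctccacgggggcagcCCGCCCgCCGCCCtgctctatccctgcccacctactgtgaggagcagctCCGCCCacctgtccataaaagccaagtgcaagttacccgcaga
Col7a1: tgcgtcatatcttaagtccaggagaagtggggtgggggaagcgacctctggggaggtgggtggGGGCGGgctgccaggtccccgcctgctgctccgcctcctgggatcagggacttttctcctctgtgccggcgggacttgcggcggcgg
Col4a1 and Col4a2, between the starts: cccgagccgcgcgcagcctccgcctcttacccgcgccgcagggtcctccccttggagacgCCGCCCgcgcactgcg

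Among the printed windows, Col10a1 alone held TATAAA, beginning 31 bases before its start, together with a CCAAT that begins 123 bases before it. The window of Col11a1 held 3 GC boxes and, on the minus strand, a CCAAT. Col8a1 held 3 GC boxes, all on the minus strand, and Col7a1 held 1. Over the 250 bases before the start, TATAAA was found in 2 of 20 matched chains (Col10a1 and Col1a2), against 12.35% of 18999 protein-coding genes. CCAAT was found in 6 of 20, against 35.48%. GGGCGG was found in 13 of 20, against 40.31%. The motifs do not contain one another, and a match describes letters and not a bound site. Chains with a GC box lay on both sides of 0, from Col11a1 at -1.85 to Col7a1 at 1.05.

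Type I and type III collagen, the bulk of dermal fibres, read towards E19 on both arrays, but by amounts that differed between the arrays. For Col3a1, the chain of type III collagen, the normalised log2 intensity in E16 was 16.25 on the array that had E19 in Cy5 and 17.48 on the other, and in E19 it was 17.99 and 17.53. The ratios were thus 1.74 and 0.06, a mean of 0.90 ± 1.19. The E16 and E19 values did not overlap, but the gap between the 2 E16 readings was larger than the mean ratio. Col1a1, the main chain of type I, read 16.45 and 16.94 in E16 and 17.47 and 16.97 in E19, with ratios of 1.02 and 0.03 and a mean of 0.53 ± 0.70. Its partner Col1a2 read 15.65 and 16.38 in E16 and 16.80 and 16.67 in E19, a mean ratio of 0.72 ± 0.60. The difference between the ratios of Col1a1 and Col1a2 was -0.19 ± 0.09, in the same direction on both arrays. Its sign depends on the probe, since the other Col1a1 probes had mean ratios of 0.77 and 0.83, above that of Col1a2. The authors' deposited table, which combines both arrays, gives log2 ratios of 0.61 for Col1a1, 0.66 for Col1a2 and 0.82 for Col3a1. With spike-in centring the mean ratios were 0.31, 0.50 and 0.68. On the array with E19 in Cy3, the ratios of Col1a1 and Col3a1 were smaller than 0.22, the spike-in mean over both arrays. After that common shift these probes thus read below 0 on that array. The spike-in mean of that array alone is not given here.

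**Figure D2:**
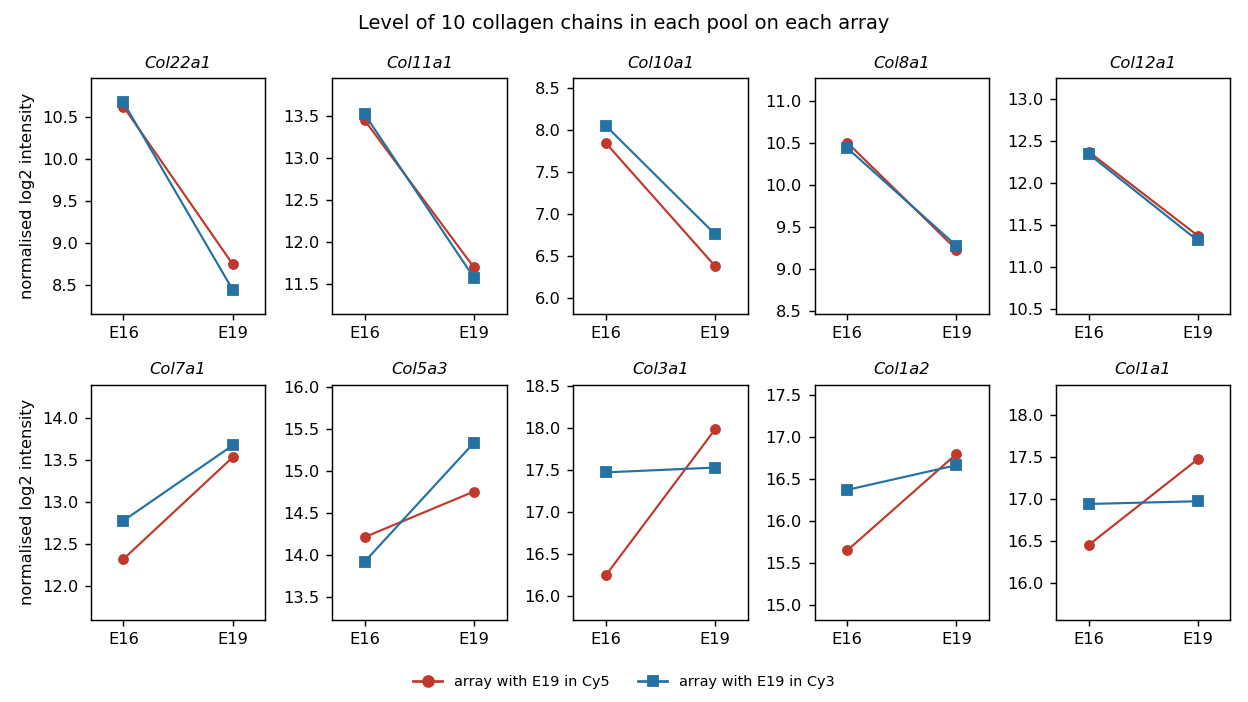
Normalised log2 intensity (vertical axis, of equal span in each panel) in the E16 and E19 pools for 10 collagen chains, on the arrays with E19 in Cy5 (circles) or Cy3 (squares). For the 5 chains of the upper row both lines run down together, while for Col3a1 the E16 readings are 16.25 and 17.48 and the E19 readings 17.99 and 17.53. Intensities of different probes are not on a common scale.

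Col3a1 and Col1a1 differed most between the arrays, and both were among the brightest genes. Of the 25 chains, 8 were among the brightest 5% of all detected genes, namely Col1a1, Col1a2, Col3a1, Col4a1, Col5a1, Col5a2, Col6a1 and Col16a1. In 7 of these 8 the array with E19 in Cy5 gave the higher ratio, as it did for 59.0% of all genes of that brightness. The median SD of the 2 arrays was 0.25 over the brightest 5% of genes, 0.21 over the chains and 0.11 over all genes. No probe of a collagen chain was marked as saturated. The 8 bright chains had a median ratio of 0.32, with array medians of 0.37 and 0.16, and the other 17 a median of -0.05. The part of brightness in the ratios of these chains was not tested. Taken singly, the array with E19 in Cy5 placed Col1a1, Col1a2, Col3a1 and Col7a1 past 2-fold towards E19, where 5.01% of all genes were. The other array placed only Col5a3 there, against 5.24% of all genes.

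**Figure D3:**
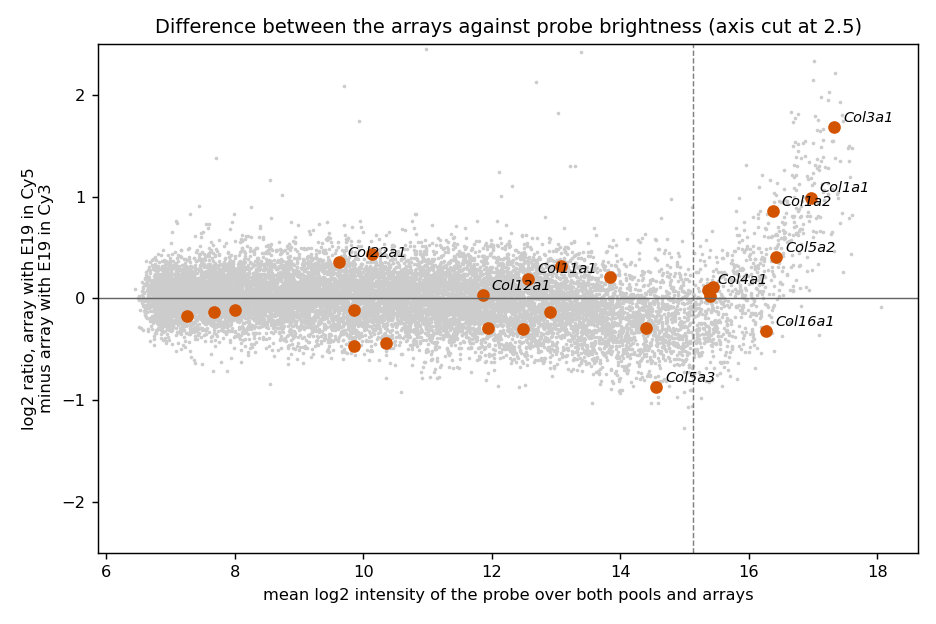
Difference between the log2 ratios of the 2 arrays (vertical axis) against the mean log2 intensity of the probe (horizontal axis) for all detected genes (grey) and the 25 collagen chains (orange), with the brightest 5% right of the dashed line. Col3a1, Col1a1 and Col1a2 lie in the bright upward tail, and Col5a3 lies below 0.

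The chains of type V collagen, which start and limit the growth of type I fibrils, did not read alike. Col5a3 read 14.21 and 13.92 in E16 and 14.75 and 15.33 in E19, with ratios of 0.54 and 1.41 and a mean of 0.98 ± 0.62. Its levels were higher in E19 on both arrays, and it missed the 2-fold rule on 1 of them. Col5a1 had ratios of 0.15 and 0.13 (mean 0.14 ± 0.01). Col5a2 had ratios of 0.15 and -0.25 (mean -0.05 ± 0.29), a change of sign. The difference between Col5a1 and Col5a3 was -0.84 ± 0.63 and that between Col5a2 and Col5a3 was -1.03 ± 0.90, in the same direction on both arrays. Col27a1 stood at -0.23 ± 0.31.

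Col11a1, which joins type V chains in fibril cores outside cartilage and type XI chains within it, was the fibrillar chain called higher in E16. Its E16 levels were 13.45 and 13.52 and its E19 levels 11.70 and 11.58. The ratio was -1.85 ± 0.14, which is 3.60-fold higher in E16, and the pools lay far apart relative to the array spread. Over all 8 fibrillar chains the median was 0.33, with array medians of 0.35 and 0.04, and without Col11a1 it was 0.53.

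The chains of fibril-associated collagens split. Col22a1, known from tissue junctions such as that of muscle and tendon, had the lowest ratio of all the chains. It read 10.62 and 10.67 in E16 and 8.74 and 8.44 in E19, a ratio of -2.05 ± 0.25, or 4.15-fold higher in E16. Col12a1, found in tendon, fascia and other dense connective tissue, read 12.38 and 12.35 in E16 and 11.38 and 11.32 in E19. Its ratio of -1.02 ± 0.02, or 2.02-fold, placed it just inside the rule, with both arrays at the line. With median centring the arrays read -0.62 and -1.53, a mean of -1.08 ± 0.64, and the call was lost. Col14a1, a close relative of Col12a1, stood at 0.05 ± 0.33 and changed sign between the arrays. The difference between Col12a1 and Col14a1 was -1.07 ± 0.35. Col16a1 stood at 0.04 ± 0.23, also with a change of sign.

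All 3 short-chain collagens read below 0 on both arrays. Col8a1 read 10.51 and 10.44 in E16 and 9.23 and 9.28 in E19, a ratio of -1.22 ± 0.08 and 2.33-fold higher in E16. With median centring in place of loess its mean ratio was -1.24 ± 0.39, but the arrays read -0.97 and -1.51, and the call was lost. Its partner chain Col8a2 had ratios of -0.63 and -0.50 (mean -0.56 ± 0.10) and was not called. The difference between these type VIII chains was -0.66 ± 0.02, larger than the array spread. Col10a1 read 7.84 and 8.05 in E16, and in E19 it was not well above background on either array, so its ratio is a bound. Set against the higher of its own E19 reading and the lowest level measured well above background, the brightest Col10a1 probe was at least 2.60-fold higher in E16. Its own E19 reading was the higher, so this bound is its measured ratio, -1.38 ± 0.12. The dimmer Col10a1 probe gave a bound of 1.31-fold in the same way. For the brightest probe the processed signals of the scanner program give -3.51 and normexp with offset 0 gives -2.31. The size of its ratio thus depends on the background correction. The authors' deposited table gives a log2 ratio of -2.63 for Col10a1, under a sequence code that both of its probes share.

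Basement membrane and filament chains read slightly above 0. Col4a1 and Col4a2, which together make the common type IV network, had ratios of 0.23 ± 0.06 and 0.49 ± 0.21. Their genes lie head to head on chromosome 16 with starts 77 bases apart, so the stretch printed above lies before both. The difference between their ratios was -0.26 ± 0.27, within the array spread. Col4a5 stood at -0.14 ± 0.31 with a change of sign. The type VI chains Col6a1, Col6a2 and Col6a3, which form a single heterotrimer, stood at 0.41 ± 0.08, 0.60 ± 0.21 and 0.46 ± 0.15. All 3 were above 0 on both arrays, and the differences between them, from -0.19 ± 0.29 to 0.15 ± 0.36, were within the array spread. With spike-in centring the median of the type VI chains was 0.24 and that of the type IV chains 0.01.

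Col7a1, the chain of the anchoring fibril, had the highest mean ratio of all the chains. It read 12.32 and 12.78 in E16 and 13.53 and 13.68 in E19. The ratios were 1.21 and 0.90, a mean of 1.05 ± 0.22 or 2.07-fold higher in E19, and the pools did not overlap. It passed the 2-fold line on 1 array and fell just short on the other, which kept it outside the call. The authors' deposited table gives a log2 ratio of 1.01. Col18a1 and Col15a1, basement membrane zone collagens with an endostatin-type end, stood at 0.59 ± 0.20 and 0.24 ± 0.09. Both were above 0 on both arrays, and the difference of Col15a1 from Col18a1 was -0.35 ± 0.11. Col23a1, a transmembrane collagen, stood at -0.05 ± 0.08.

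**Figure D4:**
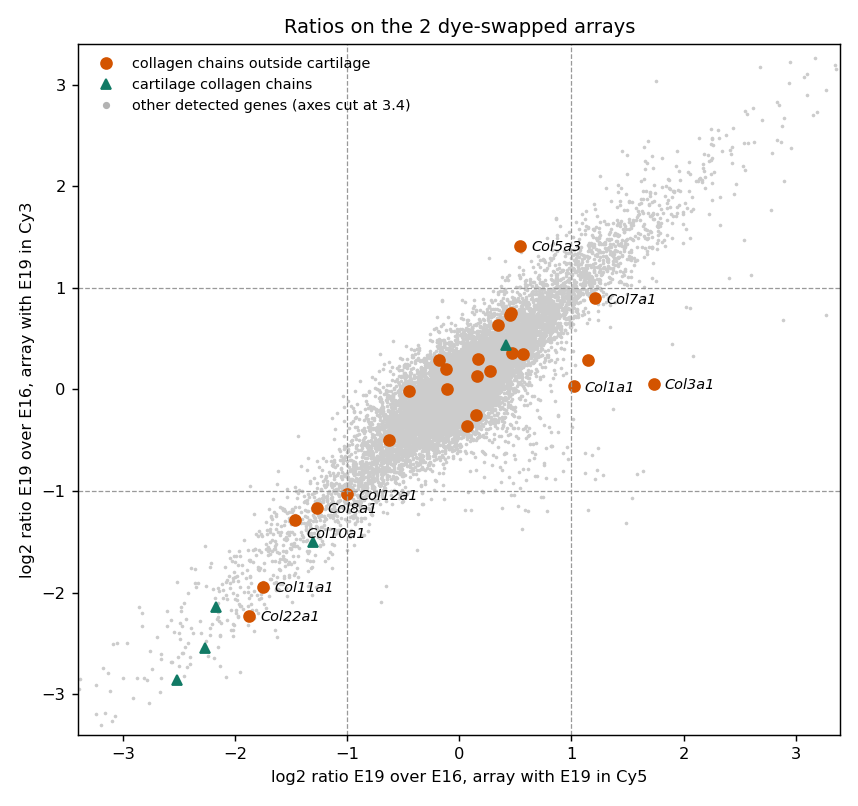
Log2 ratio E19 over E16 on the array with E19 in Cy3 (vertical axis) against the array with E19 in Cy5 (horizontal axis) for all detected genes (grey), the 25 collagen chains (orange) and the 5 detected cartilage chains (green triangles), with the 2-fold lines dashed. The 5 chains called higher in E16 lie on the diagonal with 4 cartilage chains, and Col3a1 and Col1a1 lie to the right of it.

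Where a chain had several probes, detected probes read the same side of 0 except for Col4a5, Col14a1 and Col23a1, all near 0. Col11a1 had 3 detected probes at -1.85, -2.08 and -0.96, of which 2 met the 2-fold rule. Its remaining probe was not well above background. Col10a1 had a second, dimmer probe at -0.39 ± 0.05, also not well above background in E19, so 1 of its 2 probes was called. The 2 probes of Col12a1 start 20 bases apart and so overlap, and they read -1.02 and -0.92, on either side of the threshold. Col1a1 had 3 probes at 0.53, 0.77 and 0.83, and the third read 0.58 on the array that carried E19 in Cy5 and 1.08 on the swapped array, the opposite order to the other two. For the other chains with several probes the means of detected probes differed by at most 0.25. With the mean of all detected probes in place of the brightest, Col10a1 and Col12a1 lost their call and 3 chains remained called higher in E16.

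**Figure D5:**
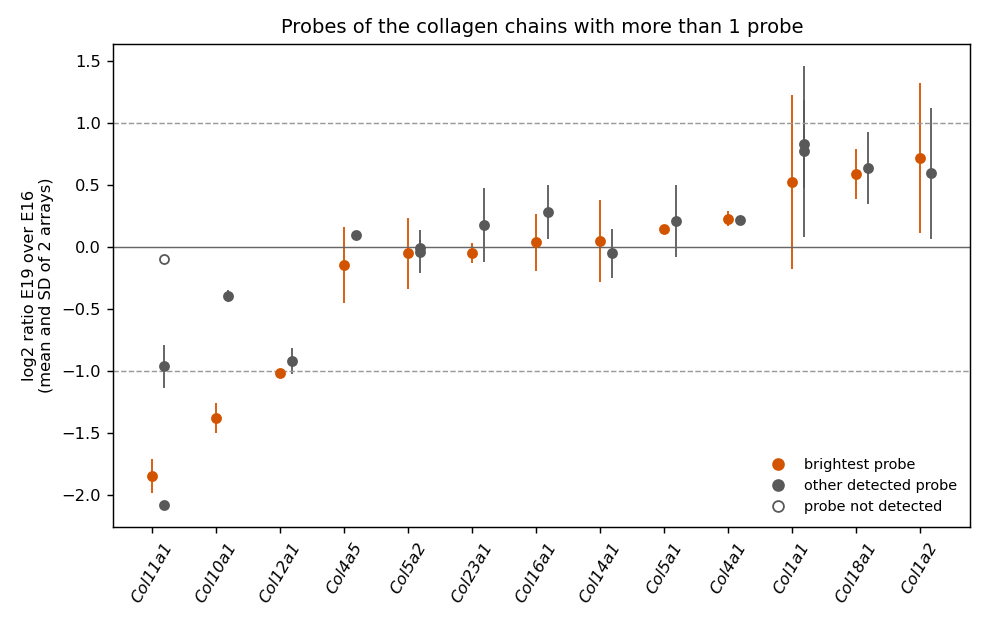
Mean log2 ratio E19 over E16 (vertical axis) with the SD of the 2 arrays (bars) for each probe of the 13 chains with more than 1 probe, with the brightest probe in orange, other detected probes in filled grey and the undetected probe open. The 3 detected probes of Col11a1 span -2.08 to -0.96, and those of Col10a1 -1.38 to -0.39.

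The chains the rule leaves out give a comparison. Of the 5 detected cartilage chains, 4 were called higher in E16, at -2.69 ± 0.24 for Col2a1, -2.41 ± 0.20 for Col9a2, -2.16 ± 0.03 for Col11a2 and -1.40 ± 0.14 for Col9a3, and Col9a1 stood at 0.43 ± 0.02. These values depend on the probe, since a second, dimmer probe read -0.07 for Col2a1, -0.09 for Col9a1 and -2.10 for Col9a3. The authors' deposited table gives -1.38 for Col2a1, 0.21 for Col9a1, -2.45 for Col9a2 and -2.25 for Col11a2. Its rows go by sequence code, which both Col2a1 probes share, as do both Col9a1 probes. Those values may therefore not be of the brightest probe alone. Col17a1, a transmembrane collagen of basal keratinocytes, was not detected. Of the listed cartilage markers 12 were detected, which include these 5 chains, and 10 were called higher in E16, with a median ratio of -1.78. Their summed intensity was 44066 to 46718 in E16 and 12037 to 13281 in E19. The 5 cartilage chains made up most of that sum in both pools, so it says little about the other markers. Matn3, a cartilage matrilin, was not well above background in E19, so its call could only be towards E16. Tnmd, a tendon marker, stood at -2.35 ± 0.13. The 6 detected bone markers were mixed. Their median was -1.18 and 3 (Ibsp, Alpl and Dmp1) were called higher in E16. Dmp1 and Phex, both in that median, were not well above background in E19. They could thus appear only as higher in E16, and their ratios are bounds. Spp1, the abundant matrix protein osteopontin, stood at 0.75 ± 0.22 and Runx2 at 0.11 ± 0.01. The summed intensity of the bone list was 52266 to 62305 in E16 and 74196 to 74540 in E19. Spp1 made up most of this sum in both pools, with log2 levels of 15.24 and 15.56 in E16 and 16.14 and 16.15 in E19. The next brightest, Ibsp, read 13.40 and 13.46 in E16 and 10.25 and 9.78 in E19. The sum therefore does not describe the list as a whole. Skeletal muscle markers were mixed too: Myod1, Myog and Myf5, factors of early muscle cells, were called higher in E16 at -2.48 ± 0.02, -1.61 ± 0.12 and -1.65 ± 0.25. Acta1 stood at 0.39 ± 0.07, and Ckm, the creatine kinase of mature muscle, was called higher in E19 at 1.17 ± 0.07. Of 4 detected nerve markers 3 were called higher in E16 (median -3.13), and all 3 detected fat markers were called higher in E19 (median 4.81). The 5 chains called higher in E16 thus changed alongside markers of several other tissues, whose part in those ratios was not tested. In pooled tissue, fewer cells of a type and less RNA per cell cannot be told apart.

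The 7 dermal fibroblast markers lay on both sides of 0, with a median of 0.35. Of these, 4 were above 0 on both arrays, and 1 was called, Dcn, the small proteoglycan decorin that binds collagen fibrils, at 1.36 ± 0.04 towards E19. The other 3, Pdgfra, Twist1 and Fbln1, were below 0 on both arrays, at -0.31 ± 0.12, -0.41 ± 0.16 and -0.60 ± 0.23. Of the 3 detected epidermal markers, Krt14, a keratin of basal keratinocytes, was called higher in E19 at 2.67 ± 0.41, and Trp63, a factor of the same cells, stood at 1.14 ± 0.50. The summed intensity of these 2 was 17415 to 19872 in E16 and 63807 to 76624 in E19. The third, Krt10, had saturated spots, so no size is given for it. The 6 endothelial and pericyte markers had a median of 0.30 with 0 called in either direction. Col7a1, made by keratinocytes and fibroblasts, read in the same direction as the epidermal markers Krt14 and Trp63, whose part in its ratio was not tested.

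Genes that process and bind collagen were described as a list. Of 46 listed symbols, older synonyms included, 33 were on the array and detected, and 0 were called in either direction, where 4.15% (E19) and 3.75% (E16) of all detected genes were. With so few genes a count of 0 is near those shares. Their median was -0.02, from -0.92 to 0.52. The lowest were Plod2, a lysyl hydroxylase of collagen ends, at -0.92 ± 0.19, and Mrc2, a receptor that takes up collagen, at -0.75 ± 0.16. The highest were Adamts14, a procollagen propeptidase, at 0.52 ± 0.05, and Loxl4, a lysyl oxidase family member, at 0.50 ± 0.09. Group medians were 0.03 for 14 hydroxylases and glycosyltransferases, -0.02 for 3 chaperone and export genes, -0.23 for 5 propeptide cleavage genes, -0.25 for 5 cross-linking enzymes and -0.32 for 6 receptors.

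Between the arrays, Pearson's r over all detected genes was 0.90 and Spearman's rho 0.80, and over the 25 chains they were 0.83 and 0.78, points that share the same pools and arrays. At the 2-fold rule 3 genes moved towards Cy5 on both arrays and 0 towards Cy3. Between 71.5% and 74.3% of spots stood well above background in each channel.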

How the data were processed

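RNA of 2 pools was compared on 2 dye-swapped arrays on the same slide. Spot intensity comes from Agilent Feature Extraction 9.5.1.1, per the file headers, which also wrote a deposited log10 ratio of Cy5 over Cy3. For 36824 sequences the authors' deposited table holds a p-value and a log10 ratio over both arrays (how they were combined is not given in the sources used here). The direction, taken to be E19 over E16, rests on correlation, since the column correlated at 0.97 with that ratio on the array that had E19 in Cy5 and at -0.98 with Cy5 over Cy3 on the other. Its rows were matched by sequence code (24 of 25 chains, without Col11a1, which has 2 rows). Where several probes share a code, its value may not be that of the brightest probe alone.

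Mean intensity was background-corrected (normexp, offset 50) and loess-normalised by array, giving control spots 0 weight, in limma 3.58.1 under R 4.3.3. Outlier spots were left out and saturated spots kept. Levels also had Aquantile normalisation. Gene names lost a trailing _predicted or _mapped. Every chain was named, and other genes by listed rules. A call needed both arrays. The number of arrays limits the precision. The steps were tested on simulated data, with changes placed only in probes of middle brightness and the same noise for all. That test does not cover the brightest chains, such as Col3a1 and Col1a1, or dim ones such as Col10a1. Python 3.11.15, pandas 2.3.3 and matplotlib 3.10.9 were used. Alternatives were background correction, centring, probe choice, filters, single arrays, the authors' table and other fold sizes. The chains and lists were chosen with earlier results of these data known. Probe positions are left out, since no genome build is named in the files.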

Additional observations from a re-analysis of the deposited data

How the results depend on the processing

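With 1 pool per stage no setting gives a test, and the SD covers the arrays only. The count of chains called higher in E16, 5, was 3 with median centring in place of loess (Col8a1 and Col12a1 lost their call on 1 array, with mean ratios of -1.24 and -1.08), 3 with the mean of all detected probes, 2 at 3-fold, and 3 without Col10a1 and Col11a1, an alternative chosen after seeing the data. Where both pools had to be measured it was 4. The share of all genes called higher in E16 was 2.97% with median centring and 3.44% with the mean of probes. It was 1.55% at 3-fold and 3.43% where both pools had to be measured. The count higher in E19, 0, was 1 to 4 on single arrays, where 5.01% to 5.24% of all genes passed. At 1.5-fold it was 1 (Col7a1), against 9.54% of all genes. In the authors' deposited table it was also 1 (Col7a1), against 8.07% of 14704 genes. That table holds 1 combined ratio, so this count does not use the rule of both arrays. The mean ratio of Col7a1 in the main setting, 1.05, was past 2-fold too. The median over all chains was 0.12 with the Feature Extraction processed signals, -0.076 with spike-in centring, 0.18 with the mean of all detected probes, 0.19 for chains well above background in both pools, 0.19 in the authors' deposited table and 0.23 without Col10a1 and Col11a1. Class medians in the main setting were 0.33 (fibrillar), 0.23 (basement membrane), 0.46 (beaded filament), -0.49 (fibril-associated) and -1.22 (short-chain). Spike-in centring gave class medians of 0.12 (fibrillar), 0.0097 (basement membrane), 0.24 (beaded filament), -0.71 (fibril-associated) and -1.44 (short-chain). The short-chain median was -1.31 with offset 0, -0.89 with the mean of probes, and -0.89 over the 2 chains left when both pools had to be measured or when Col10a1 was left out. The fibrillar median was 0.61 in the authors' deposited table. On single arrays it was 0.045 to 0.35, and the beaded filament median 0.36 to 0.47. Of 25 chains, 19 kept their sign in all settings that recompute a ratio (12, or 11 for Col10a1 and Col11a1). The others were Col4a5, Col5a1, Col5a2, Col14a1, Col16a1 and Col23a1, all within 0.15 of 0. The cause of these changes was not tested. No paired analysis was possible because each stage has 1 RNA pool. Dim probes such as Col10a1 give a bound only.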
